A study of Mus musculus with 11 samples.

Results

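Egr1, Egr2, Egr3, Nr4a1, Nr4a2, Nr4a3, Ier2, Ier3, Btg2 and Zfp36 are 10 immediate early genes, chosen here by symbol, out of 20640 gene symbols measured by RNA-seq in sorted mouse muscle stem cells. All 10 were detected in every library and are among the 11568 genes that were tested. The 11 bulk libraries come from limb muscle of Pax7-CreERT2;Rosa-YFP mice, which received 240 mg/kg tamoxifen on 5 days at 12 to 14 weeks of age. The drug releases a Cre driven by Pax7, a gene of muscle stem cells, and Cre switches on YFP for good, so that YFP marks those cells and whatever descends from them. YFP+ cells without surface Sca-1, CD31 and CD45 were sorted. The middle-aged group has 3 libraries (10 to 14 months by the sample labels, 12 to 14 in the protocol) and no VCAM1 gate in its titles. Mice of more than 28 months gave the geriatric groups, which were gated on the stem cell surface protein VCAM1: 3 VCAM1-high, 2 VCAM1-low and 3 VCAM1-negative libraries. Any comparison with the middle-aged libraries therefore changes age, gate and time since tamoxifen together, and these cannot be told apart. The labels do not say that replicates of a group are separate animals, so p-values measure the spread between these samples. In such bulk samples, fewer cells of a type and less RNA per cell cannot be told apart.

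Immediate early genes are transcribed within minutes of a stimulus, without new protein synthesis, when kinase cascades activate factors already bound near their starts, chiefly serum response factor with its ternary complex partners at CArG boxes and CREB at cAMP response elements. Their products are transcription factors (the zinc finger Egr proteins and the orphan nuclear receptors Nr4a) and regulators of growth and of mRNA turnover (Ier2, Ier3, Btg2 and Zfp36). In muscle stem cells they are widely known as genes switched on while the tissue is taken apart. Here, muscle was digested for 45 min at 37 °C before sorting, in all groups.

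The promoters of 4 members are shown because they hold letters of the elements just named. Egr2 was the member called in a comparison, Nr4a3 had the most negative difference from middle age, and Nr4a1 and Nr4a2 are the other genes of the Nr4a family. The sequences are RefSeq windows on GRCm38.p6, which held 7 of the 10 members (not Egr1, Egr3 or Ier2). Each is written 5′ to 3′ on the gene's strand, upstream of an annotated start. Capitals mark the core of the cAMP response element (CGTCA, or TGACG on the other strand) and, in Egr2, a CArG box, which is CC, then 6 letters that are A or T, then GG. The Egr2 window (chr10:67537619-67537868, plus strand) is 1 of 5 listed for that gene, 4 of which hold a CArG box. Of those 4, the windows that start at 67537619, 67537620 and 67537680 overlap and hold the same box. For Nr4a1 the window is chr15:101266596-101266845, plus strand, and for Nr4a2 it is chr2:57124004-57124253, minus strand. For Nr4a3, 98 bases are given (chr4:48045055-48045152, plus strand), which end where annotated exons begin within its window.
Egr2: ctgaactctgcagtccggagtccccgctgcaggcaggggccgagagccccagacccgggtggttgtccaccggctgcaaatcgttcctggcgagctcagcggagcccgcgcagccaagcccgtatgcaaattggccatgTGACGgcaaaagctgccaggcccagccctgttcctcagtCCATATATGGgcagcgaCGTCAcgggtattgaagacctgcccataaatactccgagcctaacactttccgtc
Nr4a1: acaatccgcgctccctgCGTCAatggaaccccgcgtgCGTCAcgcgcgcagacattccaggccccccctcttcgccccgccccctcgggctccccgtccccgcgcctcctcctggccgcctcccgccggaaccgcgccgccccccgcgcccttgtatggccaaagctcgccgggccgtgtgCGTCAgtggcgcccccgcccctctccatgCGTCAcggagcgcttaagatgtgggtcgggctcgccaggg
Nr4a2: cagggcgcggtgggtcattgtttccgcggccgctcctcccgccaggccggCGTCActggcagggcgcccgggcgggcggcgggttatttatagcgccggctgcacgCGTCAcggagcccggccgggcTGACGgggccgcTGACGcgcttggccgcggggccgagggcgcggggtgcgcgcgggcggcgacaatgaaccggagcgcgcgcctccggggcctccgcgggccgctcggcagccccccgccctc
Nr4a3: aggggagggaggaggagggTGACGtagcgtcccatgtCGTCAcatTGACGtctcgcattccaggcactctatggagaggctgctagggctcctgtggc

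The cAMP response element core occurred 4 times in the 250 bases upstream of Nr4a1 and of Nr4a2, 2 times upstream of Egr2 and 3 times in the stretch shown for Nr4a3. Of 32851 RefSeq windows of that length, 17.8% held at least 1 such core and 0.137% held 4 or more. Among the 6582 windows richest in G and C, 28% held 1 or more and 0.38% held 4 or more. A CArG box, found in 1.47% of all windows, lay at position -72 from the Egr2 start and at -58 from that of Zfp36. The Zfp36 window, part of which overlaps annotated exons, held no cAMP response element core. It did hold the Egr binding sequence GCGGGGGCG, as did the Nr4a1 window, against 2.57% of all windows. The full cAMP response element TGACGTCA, in 1.55% of windows, lay at position -166 from the Btg2 start. The NBRE, AAAGGTCA, to which Nr4a receptors bind, was in none of the windows of these genes and in 1.34% of all. The window of Ier3 held none of these motifs. Both strands were searched, and each full element also counts as a core. A match is a description of the letters, not evidence of binding.

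Depth was estimated at 19.9 to 29.8 Mreads (M for mega) per library from the steps between low values, and for the least covered member, Egr3, counting error was then at most 4.58%, which does not cover amplification. RPKM gives reads scaled by transcript length and by the size of the library. Vcam1 mRNA ran from 188 to 418 RPKM in the VCAM1-high and from 48.6 to 122 RPKM in the VCAM1-negative libraries. The defining stem cell gene Pax7 was at 5.75 to 7.85 RPKM in middle-aged, 3.94 to 5.16 RPKM in VCAM1-high, 1.97 to 7.36 RPKM in VCAM1-low and 1.71 to 4.0 RPKM in VCAM1-negative libraries. The sum of 12 muscle stem cell markers, Pax7 among them, was 3315 to 4275, 2179 to 4306, 2167 to 2787 and 1626 to 2553 RPKM in the same order. VCAM1-negative and middle-aged sums did not overlap, and 3 of the 12 were called lower in that comparison, beside 7.38% of all genes. Myofibre genes (9 genes, summed) were at 693 to 7207 RPKM in the VCAM1-negative libraries and at 55.5 to 321 RPKM in all others. All 9 were called higher in VCAM1-negative against middle-aged cells, beside 7.06% of all genes.

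Of the 10 genes, 6 ranked among the 140 most abundant symbols in every library. Egr1 ranked between 2 and 10 among the 20640 symbols, Zfp36 between 8 and 21, Nr4a1 between 20 and 74, Btg2 between 30 and 72, Ier2 between 41 and 84 and Ier3 between 50 and 140. Egr2 (rank 152 to 487) and Nr4a2 (391 to 1344) stood lower. Nr4a3 (1876 to 5391) and Egr3 (3615 to 7299) were the lowest of the 10. RPKM is already scaled by length, but the lengths used are not stated and amplification is not accounted for. The ranks of different genes are therefore approximate. Together the 10 genes took from 1.79% of the summed RPKM (middle-aged replicate 1) to 3.75% (VCAM1-negative replicate 1). The ratio of highest to lowest library ran from 1.81 for Ier2 to 3.76 for Nr4a3.

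**Figure D1:**
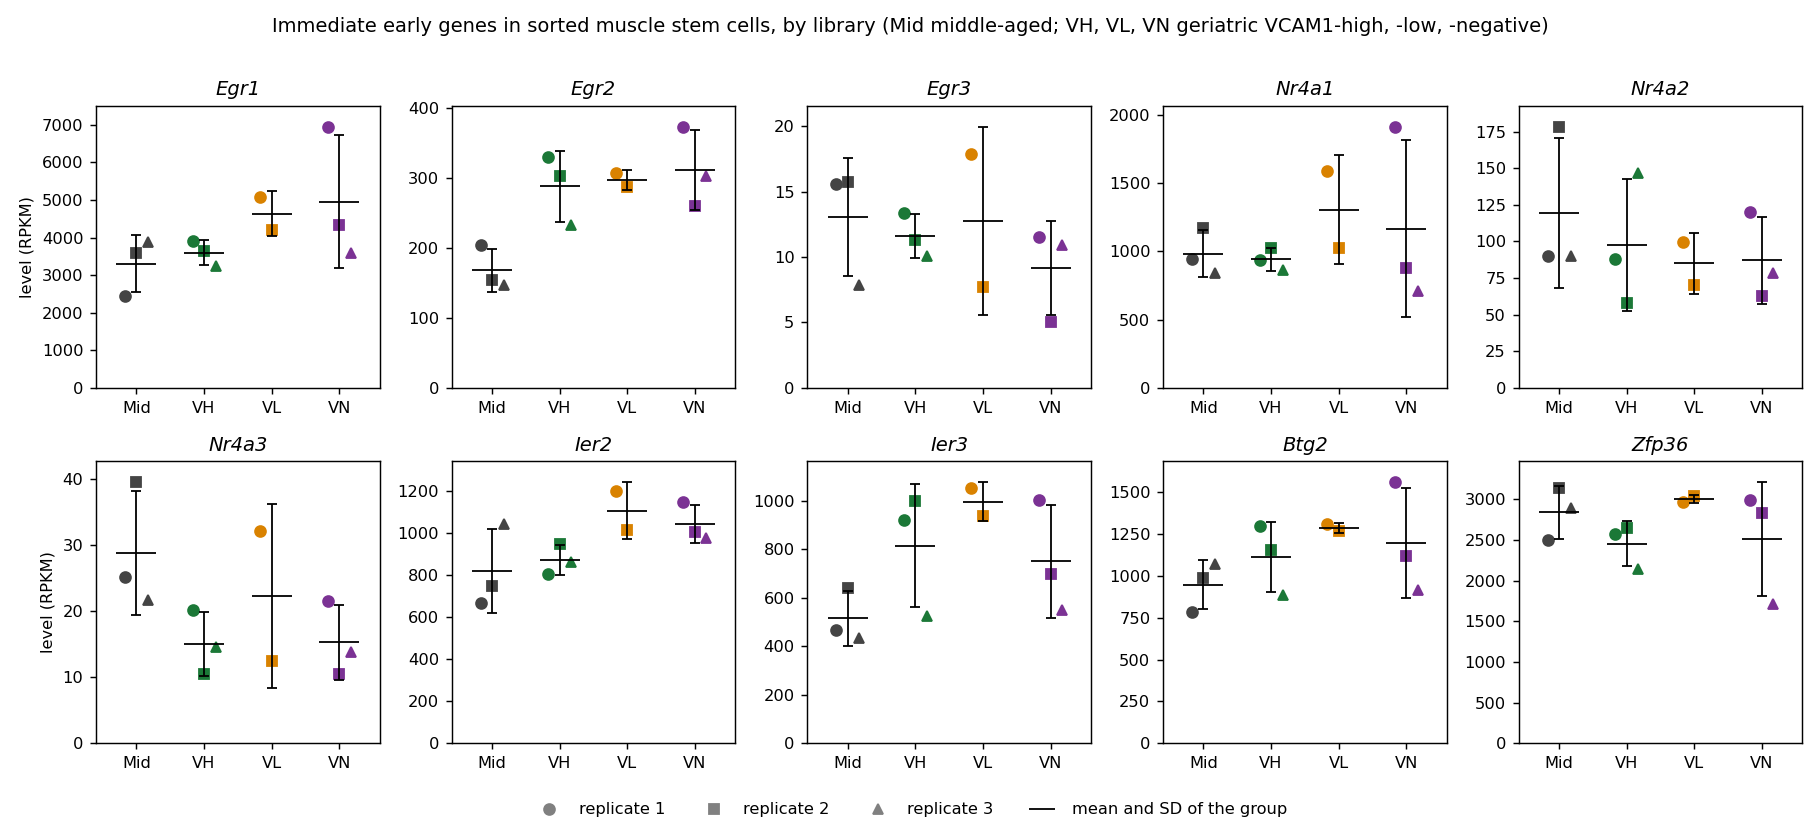
RPKM of each of the 10 genes, 1 panel per gene on a linear axis from 0, with 1 point per library in the middle-aged (Mid), VCAM1-high (VH), VCAM1-low (VL) and VCAM1-negative (VN) groups, the shape giving the replicate number and lines the group mean and SD. The 8 geriatric Egr2 points lie above its 3 middle-aged points, and the highest Egr1 and Nr4a1 points are those of VCAM1-negative replicate 1.

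Egr2, a zinc finger transcription factor known from nerve myelination and T cell tolerance, rose in VCAM1-negative geriatric cells against middle-aged cells. Its level was 204, 153 and 146 RPKM in the 3 middle-aged libraries, 329, 303 and 232 RPKM in VCAM1-high, 307 and 286 RPKM in VCAM1-low, and 373, 259 and 303 RPKM in VCAM1-negative libraries. The lowest geriatric library thus stood above the highest middle-aged one, a pattern shared by 9.04% of the genes tested. Group means were 168 ± 31.1 RPKM (SD, n = 3) in middle age and 312 ± 57.2 RPKM (SD, n = 3) in VCAM1-negative cells. The difference on the log2(RPKM + 1) scale was 0.89 ± 0.21 (SE; 95% interval 0.44 to 1.34; limma adjusted p = 0.0217). In that comparison 14.4% of all genes were called at an adjusted p under 0.05, and 7.06% were called higher.

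For Egr2 the VCAM1-high libraries (288 ± 50.4 RPKM, SD, n = 3) differed from middle age by 0.78 ± 0.21 on the log2 scale, which missed the threshold (limma adjusted p = 0.116; 0.605% of genes called). With the replicate number as a block on all 11 libraries, Egr2 was called higher there too (limma adjusted p = 0.0209), beside 6.98% of all genes. These 2 groups were taken as paired by their shared deviations. The block also covers the VCAM1-low and VCAM1-negative libraries, which were not taken as paired with middle age. In VCAM1-low cells (297 ± 14.2 RPKM, SD, n = 2) Egr2 was 0.83 ± 0.23 above middle age (limma adjusted p = 0.0623; 4.11% of genes called). Among the 3 geriatric gates Egr2 means lay within 288 to 312 RPKM. The VCAM1-negative minus VCAM1-high difference was 0.11, with a 95% interval of -0.34 to 0.56. All 3 comparisons with middle age share the same 3 control libraries. Over all 4 groups at once the limma F test gave Egr2 an adjusted p of 0.0701 (3.32% of genes called).

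The Egr2 call rested on few libraries. Against middle age, the VCAM1-negative difference lost its call without middle-aged replicate 2 (limma adjusted p = 0.0561), middle-aged replicate 3 (0.0654), VCAM1-negative replicate 1 (0.0559) or VCAM1-negative replicate 3 (0.0504), and stayed positive, from 0.75 to 1.04 on the log2 scale. Neutrophil markers, 5 genes of which 4 were tested, also split the libraries by age. Their sum was 0 to 0.737 RPKM in middle-aged and 2.0 to 51.3 RPKM in VCAM1-high libraries. It was 5.79 to 8.41 RPKM in VCAM1-low and 2.28 to 15.8 RPKM in VCAM1-negative libraries, with no overlap between the ages. The highest sum, 51.3 RPKM, was in VCAM1-high replicate 3, with Egr2 at 232 RPKM. The next highest, 15.8 RPKM, was in VCAM1-negative replicate 3, with Egr2 at 303 RPKM. S100a8 was at 0 in all 3 middle-aged libraries. None of the 4 was called against middle age without the block, and 3 were called higher in VCAM1-high cells with it, beside 6.98% of all genes. That block also called 2 higher in VCAM1-low and 2 in VCAM1-negative cells, beside 1827 and 3656 of the 11568 genes tested. Erythroid genes (3 of 5 listed are in the table) summed to 5.77 to 165 RPKM in middle-aged, 14.0 to 488 RPKM in VCAM1-high, 523 to 650 RPKM in VCAM1-low and 194 to 650 RPKM in VCAM1-negative libraries. Macrophage and leukocyte markers (11 genes) summed to 23.7 to 169, 33.2 to 1005, 82.1 to 98.9 and 126 to 255 RPKM in the same order, and Ptprc, which encodes CD45, was at 0 in 2 middle-aged libraries. Endothelial markers (11 genes) summed to 16.8 to 226, 15.5 to 81.3, 39.9 to 66.2 and 35.7 to 104 RPKM. The stem cell marker and myofibre sums given above also set VCAM1-negative apart from middle-aged libraries. The part of these cell types in the Egr2 difference was not tested.

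Egr1, a zinc finger factor and a textbook readout of growth factor and MAP kinase signalling, was the most abundant member in all but 1 library. Its level was 2450, 3593 and 3875 RPKM in the middle-aged libraries, 3905, 3646 and 3234 RPKM in VCAM1-high, 5067 and 4207 RPKM in VCAM1-low, and 6944, 4335 and 3581 RPKM in VCAM1-negative libraries. The means were ordered middle-aged (3306 ± 755 RPKM, SD, n = 3), VCAM1-high (3595 ± 339, SD, n = 3), VCAM1-low (4637 ± 608, SD, n = 2) and VCAM1-negative (4953 ± 1765, SD, n = 3), and no difference between neighbours in that order was called. The 2 VCAM1-low libraries stood clear of all VCAM1-high ones, as for 3.91% of genes, and of all middle-aged ones, as for 19.9%. VCAM1-negative minus middle-aged was 0.55 ± 0.26 on the log2 scale (95% interval -0.01 to 1.12; limma adjusted p = 0.155). Against VCAM1-high the VCAM1-negative value was 0.41 ± 0.26 higher (limma adjusted p = 0.850, and 0.186 with the block on the 8 geriatric libraries), and it was higher in 3 of 3 pairs with the same replicate number.

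Egr3, the family member known from muscle spindle development, was the scarcest of the 10. Its level was 15.6, 15.7 and 7.84 RPKM in the middle-aged, 13.4, 11.3 and 10.0 RPKM in the VCAM1-high, 17.8 and 7.69 RPKM in the VCAM1-low and 11.5, 5.00 and 10.9 RPKM in the VCAM1-negative libraries. The groups overlapped throughout. VCAM1-negative cells were at -0.49 ± 0.37 on the log2 scale against middle age (limma adjusted p = 0.374), a sign opposite to that of Egr1 and Egr2.

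Nr4a3, an orphan nuclear receptor, had lower values in VCAM1-high and VCAM1-negative cells than in middle age, and the difference did not pass the test. The middle-aged libraries held 25.2, 39.5 and 21.7 RPKM, the VCAM1-high libraries 20.2, 10.5 and 14.6 RPKM, and the VCAM1-negative libraries 21.5, 10.5 and 13.8 RPKM. VCAM1-low held 32.1 and 12.4 RPKM. Neither VCAM1-high nor VCAM1-negative libraries overlapped the middle-aged ones, though VCAM1-negative replicate 1, at 21.5 RPKM, lay just under the lowest of them, at 21.7 RPKM. The log2 difference was -0.89 ± 0.38 for VCAM1-high (limma adjusted p = 0.304) and -0.88 ± 0.38 for VCAM1-negative (limma adjusted p = 0.129). The unadjusted p was 0.0393 in the latter. Of all genes, 6.36% lay lower without overlap in VCAM1-high and 20.3% in VCAM1-negative cells, so in the latter comparison the pattern is not rare.

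Nr4a1, the family member known as Nur77, was far more abundant and followed single libraries. It stood at 940, 1170 and 840 RPKM in middle-aged, 939, 1027 and 860 RPKM in VCAM1-high, 1587 and 1023 RPKM in VCAM1-low, and 1910, 880 and 708 RPKM in VCAM1-negative libraries. The highest values were those of replicate 1 in the VCAM1-negative and VCAM1-low gates. VCAM1-negative minus middle-aged was 0.12 ± 0.33 on the log2 scale (95% interval -0.60 to 0.84), and -0.30 without VCAM1-negative replicate 1. VCAM1-negative minus VCAM1-high was 0.17 ± 0.33, and -0.25 without that library.

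Nr4a2, known as Nurr1 from dopamine neurons, had its highest value in a middle-aged library. The levels were 89.7, 178 and 90.1 RPKM in middle-aged, 87.8, 58.1 and 146 RPKM in VCAM1-high, 99.5 and 70.4 RPKM in VCAM1-low, and 120, 63.0 and 78.1 RPKM in VCAM1-negative libraries. All groups overlapped, and VCAM1-negative minus middle-aged was -0.42 ± 0.38 on the log2 scale (limma adjusted p = 0.455).

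Ier3, which modulates ERK signalling and cell survival, had middle-aged values of 468, 642 and 434 RPKM. The geriatric libraries held 921, 999 and 524 RPKM (VCAM1-high), 1053 and 939 RPKM (VCAM1-low) and 1004, 696 and 550 RPKM (VCAM1-negative). Only the 2 VCAM1-low libraries were clear of all middle-aged ones among the gates, as was the case for 19.9% of genes. Their difference from middle age was 0.97 ± 0.32 (limma adjusted p = 0.0969). For VCAM1-high it was 0.63 ± 0.29 (limma adjusted p = 0.339) and for VCAM1-negative 0.52 ± 0.29 (limma adjusted p = 0.226).

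Ier2, a nuclear protein of the same early response, kept the narrowest range of the 10 genes. Its levels were 666, 748 and 1043 RPKM in middle-aged, 807, 949 and 861 RPKM in VCAM1-high, 1202 and 1012 RPKM in VCAM1-low, and 1146, 1007 and 976 RPKM in VCAM1-negative libraries. All 3 VCAM1-negative values stood above all 3 VCAM1-high ones, as was the case for 3.28% of genes. The difference of 0.26 ± 0.19 on the log2 scale (95% interval -0.16 to 0.68) missed the threshold (limma adjusted p = 0.860, and 0.280 with the block on the 8 geriatric libraries).

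Btg2, an antiproliferative protein that also recruits the deadenylase complex to mRNAs, stood at 784, 985 and 1070 RPKM in middle-aged, 1299, 1154 and 885 RPKM in VCAM1-high, 1307 and 1265 RPKM in VCAM1-low, and 1557, 1115 and 916 RPKM in VCAM1-negative libraries. VCAM1-low was clear of middle age, as for 19.9% of genes, with a difference of 0.45 ± 0.25 (limma adjusted p = 0.274). Zfp36 encodes tristetraprolin, which binds AU-rich elements and speeds the decay of its target mRNAs. Its level was 2492, 3135 and 2886 RPKM in middle-aged, 2575, 2645 and 2138 RPKM in VCAM1-high, 2965 and 3036 RPKM in VCAM1-low, and 2984, 2833 and 1705 RPKM in VCAM1-negative libraries. Against middle age its difference was -0.21 ± 0.22 in both VCAM1-high and VCAM1-negative cells, with 95% intervals that reach from -0.70 to 0.27 at the widest.

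Counted over the 10 genes, 1 was called higher and none lower in VCAM1-negative against middle-aged cells, where 14.4% of all genes were called. None was called in VCAM1-high (0.605% of all genes) or VCAM1-low (4.11%) against middle-aged cells. The member counts are thus near the background. The median member difference was 0.22, 0.03 and 0.42 in these 3 comparisons, beside -0.02, 0.04 and -0.05 over all genes tested. Among the geriatric gates limma called 0 members and 0 of all genes (0%) in VCAM1-negative against VCAM1-high, where 0 members and 755 genes (6.53%) had an unadjusted p under 0.05. VCAM1-low against VCAM1-high and VCAM1-negative against VCAM1-low also gave 0 calls (0%), with 0 members and with 337 genes (2.91%) and 217 genes (1.88%) at an unadjusted p under 0.05. In VCAM1-low against VCAM1-high, 9 of the 10 member differences were positive, with a median of 0.32 beside -0.09 over all genes. There 3 members (Egr1, Ier2 and Zfp36) lay higher without overlap, beside 3.91% of genes. The median was 0.05 (all genes -0.07) in VCAM1-negative against VCAM1-high and -0.20 (all genes 0.02) in VCAM1-negative against VCAM1-low. With the block on the 8 geriatric libraries, 4.17% of genes were called in VCAM1-negative against VCAM1-high, again with 0 members, whose adjusted p ran from 0.186 for Egr1 to 0.989 for Zfp36. The intervals without the block leave room for sizeable differences: for Egr1 up to 0.97, and for Egr3 down to -1.18.

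**Figure D2:**
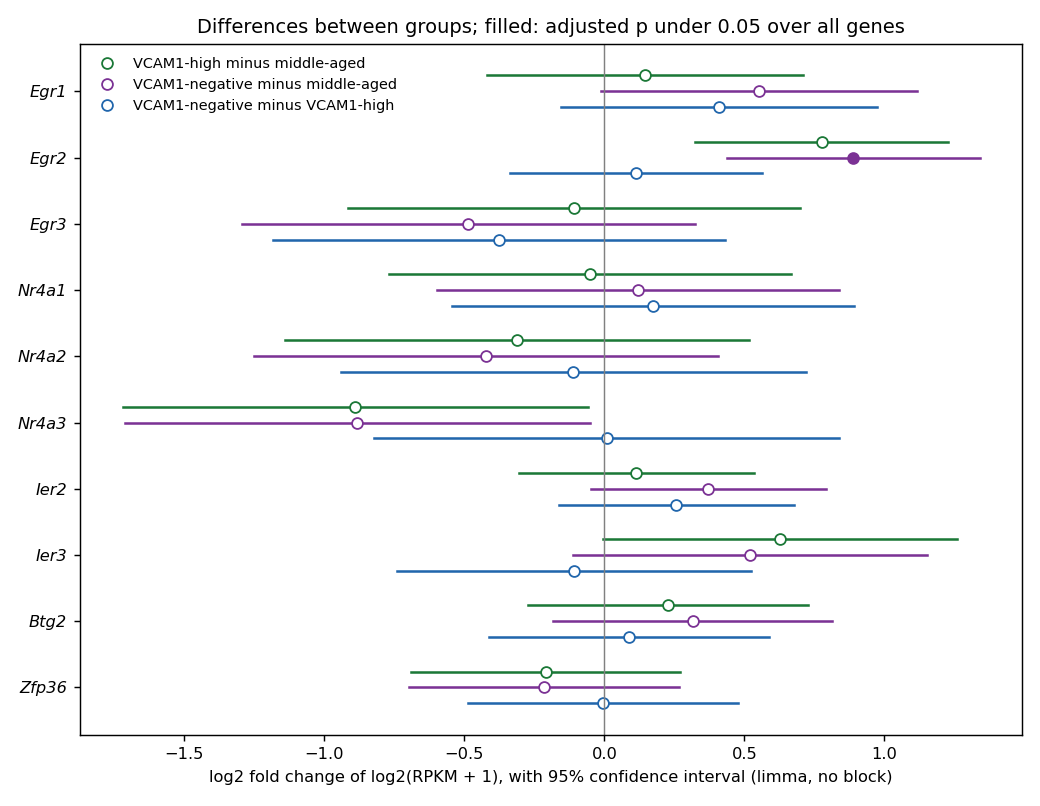
Differences of each of the 10 genes on the log2(RPKM + 1) scale (points) with 95% intervals (lines) from limma without a block, for VCAM1-high minus middle-aged, VCAM1-negative minus middle-aged and VCAM1-negative minus VCAM1-high cells, filled where the adjusted p is under 0.05. The single filled point is Egr2 in VCAM1-negative minus middle-aged cells. The Egr2 intervals against middle age lie above 0 and those of Nr4a3 below 0, while all 10 intervals between VCAM1-negative and VCAM1-high cells include 0.

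Part of the spread of these genes lay between libraries of 1 group. The mean of the 10 genes, each centred on its own log2 average, was 0.44 in VCAM1-negative replicate 1 and 0.41 in VCAM1-low replicate 1. In the other 9 libraries it lay between -0.23 (VCAM1-negative replicate 3) and 0.14 (middle-aged replicate 2). The 2 high libraries also had the highest sums of 8 heat shock genes, 18461 and 16523 RPKM. VCAM1-high replicate 1 had 9192 RPKM, and the other libraries were at 3762 to 5369 RPKM. The part of whatever sets these libraries apart was not tested. Without the replicate 1 libraries of the 3 geriatric gates, a choice made after seeing the data, Egr2 in VCAM1-negative against middle-aged cells was at 0.75 (limma adjusted p = 0.0886).

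The members did not move as 1 block. The 11 libraries share a digestion and library protocol and differ in age, gate and time since tamoxifen. Across them Pearson's r of the 45 pairs of members ran from -0.40 to 0.90 with a median of 0.41, and 32 of the 45 were positive. Taken within groups the median was 0.41 and 40 were positive. Over the 9 libraries other than the 2 high ones the median fell to 0.19 and 25 pairs were positive. The 2 left out were picked for their distance on the members' own mean, a choice that favours such a fall. The closest pair was Egr1 with Btg2 (r = 0.90, 0.92 within groups and 0.83 over the 9 libraries). Each member is part of the members' mean, which raises its r with that mean, unlike the r of genes outside the list. Nr4a1 followed the members' mean most closely (r = 0.94), whereas Nr4a2 (0.39), Egr2 (0.40) and Ier2 (0.41) followed it least. Within groups these 3 had r values of 0.58, 0.49 and 0.25. Over the 9 libraries they had 0.38, -0.02 and -0.34, and Nr4a1 had 0.77. The genes outside the list with the pattern most like that mean over the 11 libraries were Ccdc117 (r = 0.96), Snapc1 (0.95), Hsph1 (0.94), Bambi (0.94), Btg1 (0.93), Slc5a3 (0.92), Mab21l1 (0.90), Hspa1b (0.90), Gadd45a (0.90) and Hspa1a (0.89). Hsph1, Hspa1a and Hspa1b encode heat shock proteins, the last 2 from near-identical copies whose reads the counting may split. Without the 2 high libraries, r with that mean was 0.96 for Btg1, 0.92 for Mab21l1 and 0.90 for Ccdc117, and 0.62 to 0.85 for the other 7 genes.

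**Figure D3:**
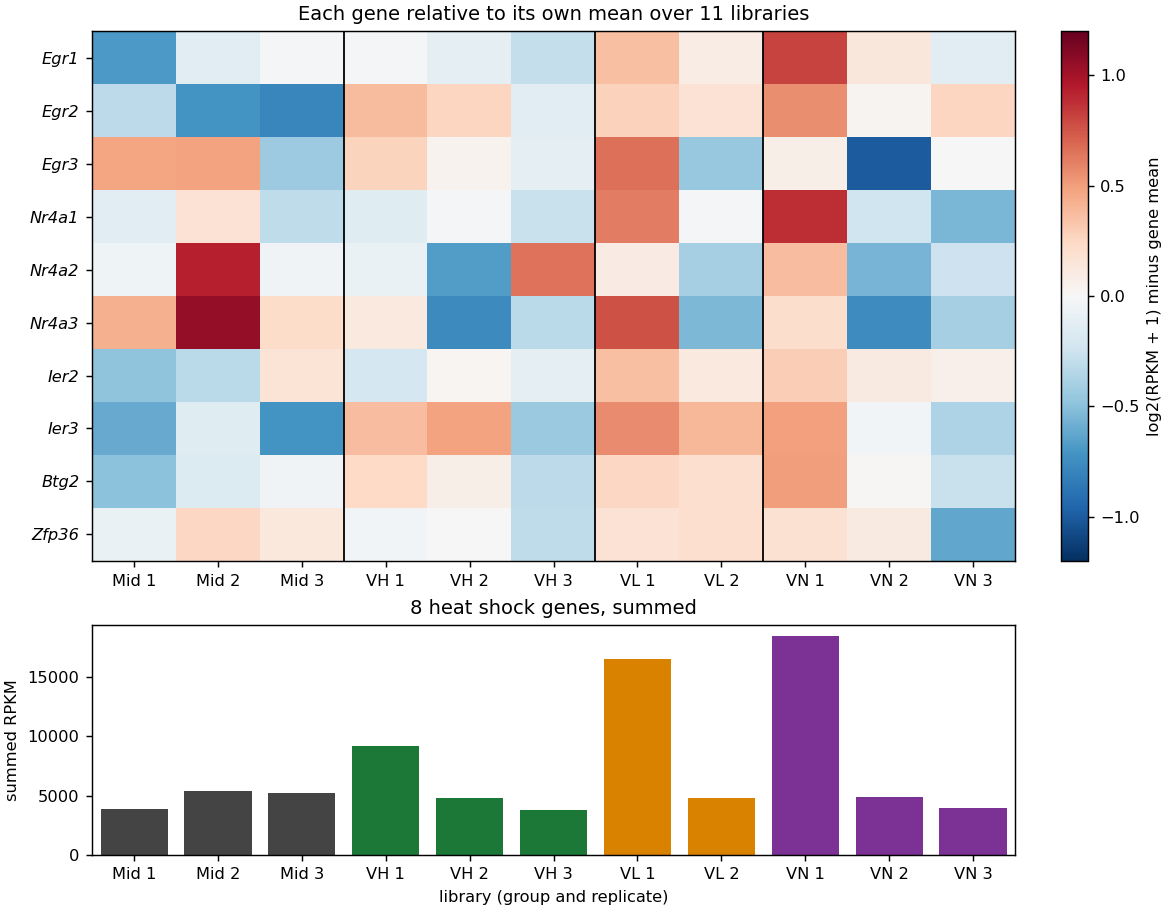
The upper panel colours each gene (rows) in each library (columns, by group and replicate) by its log2(RPKM + 1) minus the gene's mean over the 11 libraries, and the bars below give the summed RPKM of the 8 heat shock genes. VCAM1-negative replicate 1 and VCAM1-low replicate 1 are above the gene mean for all 10 genes, and carry heat shock sums of 18461 and 16523 RPKM.

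Other genes of the early response were compared in VCAM1-negative cells against middle age, where 7.06% of all genes were called higher and 7.38% lower, with a median of -0.02. The stem cell marker, neutrophil, erythroid and myofibre sums given above differ between these groups too, and their part in the following calls was not tested. Of 35 further immediate early genes tested (36 listed), 7 rose and none fell, with a median difference of 0.25. Klf10, a zinc finger factor downstream of TGF-beta, had 41.4 to 59.7 RPKM in middle-aged and 155 to 282 RPKM in VCAM1-negative libraries (1.99 ± 0.34; limma adjusted p = 0.00893). Socs3, the feedback inhibitor of cytokine receptors, had 844 to 1082 and 2018 to 2228 RPKM (1.10 ± 0.19; limma adjusted p = 0.00922). Atf3, a stress-induced factor that binds cAMP response elements, had 661 to 797 and 1300 to 1799 RPKM (1.06 ± 0.19; limma adjusted p = 0.00998). These 3 genes were called in 11 of 11 fits that left out 1 library. Myc rose by 0.82 ± 0.21 (limma adjusted p = 0.0289), and lost the call without middle-aged replicate 1 or VCAM1-negative replicate 2 or 3 (adjusted p from 0.0563 to 0.110). Bhlhe40, Nfil3 and Plk2 were the other 3.

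None of 13 relatives and partners of the members was called in that comparison (14 listed; median 0.46). Among 19 upstream kinases and factors none rose and 1 fell, with a median of -0.03: Srf, which encodes serum response factor, had 21.5 to 24.4 RPKM in middle-aged and 12.1 to 13.6 RPKM in VCAM1-negative libraries (-0.77 ± 0.18; limma adjusted p = 0.0230). The Srf call was lost without middle-aged replicate 1 or 3 or VCAM1-negative replicate 2 (adjusted p from 0.0595 to 0.0872). In VCAM1-high libraries Srf was at 11.5 to 17.6 RPKM. Of 10 feedback genes of the MAP kinase pathway, the phosphatase genes Dusp4 (0.85 ± 0.17; limma adjusted p = 0.0155) and Dusp5 (1.25 ± 0.29; limma adjusted p = 0.0210) rose and Spry2 (-0.75 ± 0.21; limma adjusted p = 0.0386) fell. Middle-aged and VCAM1-negative libraries had 3.52 to 4.40 and 7.02 to 9.89 RPKM of Dusp4, and 26.9 to 41.9 and 67.5 to 89.2 RPKM of Dusp5. Spry2 was low, at 3.26 to 5.80 and 2.04 to 2.38 RPKM. With a pseudocount of 0.1 in place of 1, Dusp4 was at 0.98 and Spry2 at -0.96. Dusp4 kept its call in all 11 fits without 1 library. Dusp5 lost it without middle-aged replicate 1 or 3 or VCAM1-negative replicate 2 or 3 (adjusted p up to 0.0834). Spry2 lost it without middle-aged replicate 1 or 2, VCAM1-high replicate 1 or any VCAM1-negative replicate (adjusted p up to 0.123).

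Of 8 known target mRNAs of Zfp36 that were tested (10 listed), 1 rose and 1 fell, at the Zfp36 levels given above. Myod1, the myogenic factor whose mRNA tristetraprolin is known to destabilise in quiescent muscle stem cells, had 135 to 231 RPKM in middle-aged, 338 to 618 RPKM in VCAM1-high and 622 to 725 RPKM in VCAM1-negative libraries (VCAM1-negative against middle-aged 1.88 ± 0.25; limma adjusted p = 0.00344; called in 11 of 11 fits without 1 library). The chemokine gene Cxcl2 fell (-1.04 ± 0.31; limma adjusted p = 0.0477), and was called in 1 of those 11 fits, the one without VCAM1-high replicate 3; the adjusted p reached 0.133 without VCAM1-negative replicate 3. None of the 8 heat shock genes was called.

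Some of these genes were called in other comparisons too. In VCAM1-low against middle-aged cells (4.11% of all genes called), Myod1 (618 and 653 RPKM; 1.81 ± 0.28; limma adjusted p = 0.0138), Socs3 (1989 and 2226 RPKM; 1.11 ± 0.21; 0.0271), Atf3 (1385 and 1531 RPKM; 1.03 ± 0.21; 0.0336) and Klf10 (119 and 232 RPKM; 1.64 ± 0.38; 0.0430) rose, and no other gene of the 6 lists was called. With 1 library left out, each of the 4 lost its call without either VCAM1-low library. Socs3, Atf3 and Klf10 also lost it without any one middle-aged library, Atf3 and Klf10 without VCAM1-high replicate 1, and Klf10 without VCAM1-negative replicate 1 or 3. Their adjusted p then reached 0.198 for Myod1, 0.281 for Socs3, 0.251 for Atf3 and 0.384 for Klf10.

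In VCAM1-high against middle-aged cells no gene of the 6 lists was called without the block. With the block, where 6.98% of all genes were called, Klf10 (1.4 ± 0.23; limma adjusted p = 0.0152), Socs3 and Myc rose and Per1 fell among the 35 early genes. The relative Ier5, the phosphatase gene Dusp5 (1.02 ± 0.16; limma adjusted p = 0.0139) and the Zfp36 targets Myod1 (1.27 ± 0.20; limma adjusted p = 0.0142) and Ccl2 rose there, and Srf (-0.69 ± 0.14; limma adjusted p = 0.0295), Map2k2 and Spry2 fell. In VCAM1-negative against VCAM1-high cells none was called without the block. With the block on the 8 geriatric libraries, where 4.17% of all genes were called, Atf3 (0.59 ± 0.12; limma adjusted p = 0.0415) and Tob1 rose, and Ccn2 and Ccl2 fell.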

How the data were processed

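RNA from sorted cells was amplified with SMART-Seq v4 and sequenced as paired ends, per the labels' protocols. The authors deposited RPKM values. Build GRCm39, STAR 2.7.5b, Bowtie2 2.1.0, SAMtools 0.1.19 and cutadapt 3.1 appear in the submitters' processing notes, with no role stated for each. The sources used here do not say how reads were counted, or with which gene models and lengths.

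Values were taken as log2(RPKM + 1), and genes with at least 1 RPKM in at least 2 libraries were tested (11568 genes) in 1 limma model (limma 3.58.1, R 4.3.3) of 4 group means with a mean-variance trend. P-values are two-sided and were adjusted by Benjamini-Hochberg over all genes, with calls at 0.05. The procedure was tested on simulated data. The members and gene lists were chosen with earlier results of these data known. Of each list, up to 4 called genes with the smallest adjusted p were named with values, and the 3 others of a list of 7 by symbol. Like genes were ranked by r with the members' mean. Groups follow the sample titles. For the 2 lower gates the design text uses mid and low/- in place of low and negative.

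Replicate numbers were taken to pair groups where every same-numbered pair of libraries deviated together (r over 0.1). This held for VCAM1-negative with VCAM1-high (0.41, 0.58 and 0.40) and VCAM1-high with middle age (0.21, 0.33 and 0.55, though number 1 reached 0.33 with another number), not for VCAM1-negative with middle age (-0.02, 0.03 and 0.08). VCAM1-low, with 2 libraries, met the rule with VCAM1-high (0.49 and 0.51) and VCAM1-negative (0.52 and 0.57), not with middle age (0.15 and 0.03). It was not taken as paired with middle age, and blocked values for it are given only with the alternatives. Depth came from low RPKM values times GENCODE M21 lengths, of which 63.5% to 72.4% lay within 0.1 of a whole read, so it is an estimate and no count test was run.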

Additional observations from a re-analysis of the deposited data

How the results depend on the processing

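Of 20 alternatives, Egr2 in VCAM1-negative against middle-aged cells was higher in all and called in 14, with a limma adjusted p from 0.00284 to 0.0886. Members called there fell from 1 to 0 without the number-3 libraries or without the geriatric number-1 libraries (the latter chosen after seeing the data), and ran from 0 to 1 with single libraries left out. In every other comparison members called were 0, except with the replicate block on 11 libraries, which called 1 for VCAM1-high and 2 for VCAM1-low against middle age and 1 in the F test, and without VCAM1-high replicate 3, where VCAM1-low against middle age and the F test gave 1 each instead of 0. Neither VCAM1-low nor VCAM1-negative libraries were taken as paired with middle age. There the replicate block gave, for VCAM1-low, Egr2 at 0.75 ± 0.17 (limma adjusted p = 0.0192) and Ier3 at 0.77 ± 0.23 (0.0488), and in the F test Egr2 an adjusted p of 0.0112.

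The same alternatives were run, as a choice made after seeing the data, for the 10 genes of other lists that are given with values. Klf10, Socs3, Atf3 and Myod1 were called in 20 of 20, Dusp4 in 18, Srf and Dusp5 in 15, Myc in 14 and Cxcl2 in 4. Spry2 was called in 9 of the 19 in which it was tested.

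The counts over all genes moved as follows. VCAM1-negative against VCAM1-high went from 0 calls to 18 with a mean of at least 5 RPKM, 22 with a pseudocount of 0.1, 13 with equal RPKM sums, 16 with median ratio scaling, 65 and 482 with the replicate block on 11 and on the 8 geriatric libraries, 9 without number-3 and 65 without the geriatric number-1 libraries, and 0 to 128 leaving out 1 library (128 without VCAM1-negative replicate 1). VCAM1-high against middle age went from 70 calls to 20 with no filter, 14 with only the 2 groups, 807 with the replicate block, 4 without the geriatric number-1 libraries and 18 to 240 leaving out 1 (240 without VCAM1-high replicate 3). VCAM1-negative against middle age went from 1671 to 870 with no filter, 3656 with the replicate block, 826 without number-3 and 883 without the geriatric number-1 libraries, and 339 to 1836 leaving out 1 (339 without VCAM1-negative replicate 2). VCAM1-low against middle age went from 475 to 104 with no filter, 1827 with the replicate block, 0 without the geriatric number-1 libraries and 1 to 825 leaving out 1. VCAM1-low against VCAM1-high gave 1 with the replicate block on the 8 geriatric libraries. VCAM1-negative against VCAM1-low gave 37 without the geriatric number-1 libraries and 0 to 117 leaving out 1. The causes were not tested.

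Signs of uncalled members turned in VCAM1-negative against VCAM1-high: Zfp36 to 0.0084 with equal RPKM sums, 0.072 with median ratio scaling and 0.16 without number-3 libraries; Egr2 to -0.022 and Nr4a2 to 0.28 without number-3 libraries; Nr4a1 to -0.25 and Nr4a3 to -0.034 without the geriatric number-1 libraries. Leaving out 1 library gave -0.15 to 0.25 for Zfp36, -0.034 to 0.24 for Egr2, -0.43 to 0.23 for Nr4a2, -0.25 to 0.46 for Nr4a1, -0.25 to 0.23 for Nr4a3, -0.40 to 0.093 for Ier3 and -0.12 to 0.26 for Btg2. In VCAM1-high against middle age it gave -0.058 to 0.27 for Egr1, -0.41 to 0.046 for Egr3, -0.16 to 0.080 for Nr4a1, -0.65 to 0.014 for Nr4a2 and -0.022 to 0.30 for Ier2. In VCAM1-negative against middle age Nr4a1 was -0.30 without the geriatric number-1 libraries and -0.30 to 0.41 leaving out 1, and Zfp36 was 0.057 without number-3 libraries and -0.36 to 0.042 leaving out 1. A VCAM1-low library left alone is assumed to vary like the other groups. Depth was only estimated, and its counting error does not cover amplification.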
